A study of Curcuma longa with 2 samples.

Results

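The miR170/miR171 family is a set of plant microRNAs that is known for silencing GRAS transcription factor genes. Small RNA was sequenced from nanoparticles of the root of turmeric, Curcuma longa. The entries named miR170 or miR171 were collected by name, and reads of identical sequences were summed. Of the 186 distinct sequences listed, 9 belonged to the family, and 7 of these had reads. All 12 lines of the table behind them carry miR171 names and 0 carry a miR170 name. The study holds 2 samples of turmeric nanoparticles, called library 1 and library 2 here, with no other treatment, tissue or control, so every value describes what was listed in these libraries. The labels do not state whether these are separate preparations, so their spread may be technical.

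A plant microRNA is cut from a hairpin precursor as a short duplex, of which one strand is kept by an Argonaute protein and guides it to transcripts with a nearly perfect match. In Arabidopsis, miR171 acts on the HAIRY MERISTEM (also called SCL6 or LOST MERISTEMS) genes, GRAS family regulators that keep shoot meristems undifferentiated, and its mature strand comes from the 3′ arm of the hairpin. The first base of a plant small RNA is known to bear on which Argonaute takes it up: in Arabidopsis AGO1 favours a first U and AGO5 a first C. Targets were not measured in these libraries, and RNA inside the particles and RNA that came along in their isolation cannot be told apart.

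The sequences with reads are shown because they differ in start and first base, the features on which the results turn. They are written 5′ to 3′ as deposited, with T for U, and capitals mark the seed, bases 2 to 8. Each is called by a name that the table gives it, without the codes for shifted ends or changed bases. The name derives from a registered miRNA or hairpin, and its species prefix is not turmeric.
mes-miR171l: cGAGCCGAaccaatatcactc
osa-miR171h, shifted: tGAGCCGAaccaatatcactc
tae-MIR171b-p3: cGATTGAGccgtgccaatatc
mtr-miR171c: tGATTGAGccgtgccaatatt
osa-miR171b: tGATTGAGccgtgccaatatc
stu-miR171b-3p: tTGAGCCGcgtcaatatctct
mdm-MIR171m-p5: tATTGGAAtggctcaatcaga

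They fall into 4 seeds. The first and second sequences share one seed, the third to the fifth share another, and the remaining 2 have a seed each. All 7 are 21 bases long, against 77 of the 160 other sequences with reads. From the 3′ arm come 6 of the 7, against 78 of the 160 others. The 6 sequences of the 3′ arm share the run CAATAT, which was used to line them up, and also the run GAGCCG further upstream. Lined up in this way, stu-miR171b-3p starts 1 base before mes-miR171l, and the 3 sequences with the seed GATTGAG start 4 bases before it. Over their 17 shared positions, mes-miR171l and osa-miR171b differ at 3, namely C1T, A8T and A9G, counted from 1 at the 5′ end of mes-miR171l with its base first. Against stu-miR171b-3p it differs at 5 of 20 shared positions. The starts therefore move together with changes inside the core, and the forms are not the same sequence cut at different places.

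The family as a whole held 838 reads in library 1 and 658.5 in library 2. This was 0.869% of the 96386 listed reads in library 1 (95% Clopper-Pearson interval 0.812% to 0.930%) and 0.912% of the 72196 in library 2 (0.845% to 0.985%), a mean of 0.89% ± 0.030 (SD, n = 2). The listed totals cover a list of miRNA entries and are not the sequencing depth. These and all later intervals reflect counting error alone, because the reads carry no molecular identifiers and are not independent molecules. The share placed the family 10th of 43 named families in library 1 and in library 2 alike. Directly above it stood miR528, a family of monocots, 1.18-fold higher on average (log2 ratio 0.23 ± 0.033, SD, n = 2). The interval of miR528 in library 2, 0.982% to 1.13%, slightly overlaps that of miR170/miR171, while those in library 1 do not overlap. Directly below it stood miR168, which targets the Argonaute gene AGO1. The miR170/miR171 share was 1.08-fold that of miR168 in library 1 and 1.09-fold in library 2, so the order was the same in both, but the counting intervals of these families overlap. With the value of a single line for each sequence, described further on, the family ranked 11th, with miR164 above it.

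The levels of the members spread over more than an order of magnitude, and all 21 pairs kept one order in both libraries by more than the SD of their log2 ratio. The most abundant form was mes-miR171l, with 427 reads in library 1 and 301 in library 2. It held 51.0% of the family's reads in library 1 (interval 47.5% to 54.4%) and 45.7% in library 2 (41.8% to 49.6%). It ranked 26th among all 167 sequences with reads. The table names it in 2 ways, once as rice miR171h with a shifted start and a changed base, and once as identical to cassava miR171l.

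Next came tae-MIR171b-p3, with 153 reads in library 1 and 147 in library 2, or 18.3% and 22.3% of the family. This form begins 3 bases before the registered wheat sequence on the quoted wheat hairpin, and the table gives it the ending of an arm without a registered sequence of its own. The form stu-miR171b-3p, identical to the registered potato sequence, had 117 reads in library 1 and 100 in library 2, with a mean of 14.6% ± 0.87 (SD, n = 2) of the family.

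The other 4 forms each stayed under 10% of the family. The sequence of the 5′ arm, mdm-MIR171m-p5, had 54 reads in library 1 and 51 in library 2. It is listed with 2 substitutions from the corresponding stretch of an apple hairpin. The Medicago form mtr-miR171c had 43 reads in library 1 and 29 in library 2, and osa-miR171b had 23 and 19. The shifted osa-miR171h form was lowest, with 21 reads in library 1 and 11.5 in library 2. Among these low forms 4 pairs have intervals of family share that overlap in both libraries. These are mtr-miR171c against mdm-MIR171m-p5, against osa-miR171b and against shifted osa-miR171h, and shifted osa-miR171h against osa-miR171b. Overlap of separate intervals does not by itself show that an order is within counting error. The pair of mtr-miR171c and mdm-MIR171m-p5 is compared directly with hairpin A below. The intervals of tae-MIR171b-p3 and stu-miR171b-3p overlap in library 1 only, and those of the other 16 pairs in neither library. A form named aof-miR171c and one named lja-miR171c with a changed last base were listed at 0 in both libraries. The smallest value above 0 in the table was 2.5 reads, so a 0 may reflect a floor of the list.

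**Figure D1:**
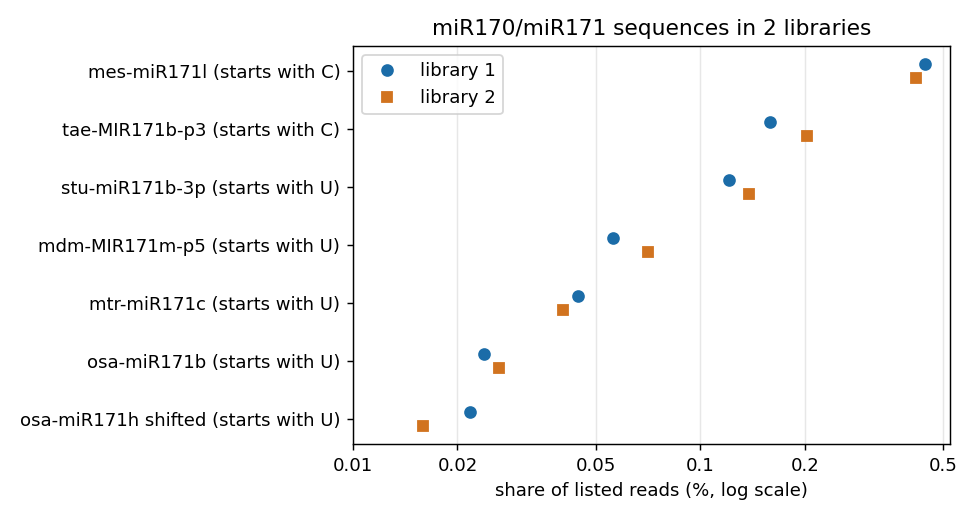
Share of all listed reads (%, log scale) for the 7 miR170/miR171 sequences with reads, in library 1 (circles) and library 2 (squares), with the first base of each beside its name. The forms keep 1 order in both libraries, with mes-miR171l at 0.443% in library 1 and 0.417% in library 2, and the shifted osa-miR171h form at 0.0218% and 0.0159%.

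The form listed with registered hairpins of the most plants was not the most abundant here. These hairpins are the entries that the table lists with a form, and they need not hold its exact sequence. The most widely listed form, osa-miR171b, was listed with 120 registered hairpins from 38 species. It held 2.74% of the family's reads in library 1 and 2.89% in library 2. The leading mes-miR171l form was listed with 14 registered hairpins from 12 species, 4 of them named MIR479 and not MIR171. Shifted osa-miR171h, identical to no registered sequence quoted, was also listed with 14 hairpins from 12 species. Of the 7 forms, 4 were identical to a registered mature sequence quoted in the table, and these held 70.5% ± 3.26 (SD, n = 2) of the family. The 2 forms counted here as loosely matched, by a rule on their names given with the processing, held 27.4% ± 3.79 (SD, n = 2). They are tae-MIR171b-p3, counted so for its arm ending alone, and mdm-MIR171m-p5.

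Grouped by start, the forms with the seed GAGCCGA, mes-miR171l and shifted osa-miR171h, held 53.5% of the family in library 1 and 47.5% in library 2. The 3 forms that start 4 bases earlier held 26.1% in library 1 and 29.6% in library 2. The form that starts 1 base before the leading one, stu-miR171b-3p, is the 14.6% given above. The 5′ arm held the remaining 6.44% in library 1 and 7.74% in library 2. A shift of the start moves the seed, so these groups have no seed in common.

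**Figure D2:**
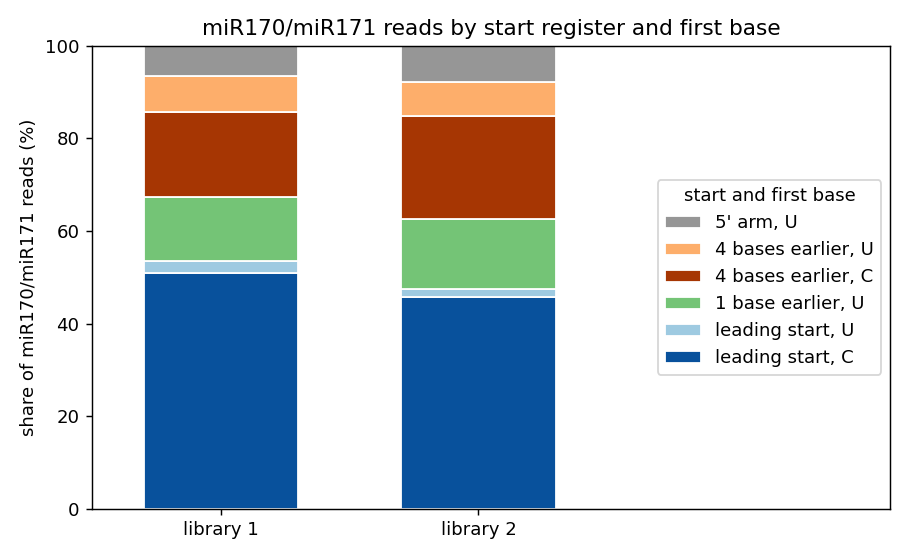
Share of the miR170/miR171 reads (%) in library 1 and library 2, stacked by where the sequence starts relative to the leading mes-miR171l form and by its first base. The dark blue and dark brown blocks, the forms that start with C, make up 69.2% in library 1 and 68.0% in library 2.

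Most miR170/miR171 reads began with C. The C-starting forms mes-miR171l and tae-MIR171b-p3 held 69.2% of the family's reads in library 1 (interval 66.0% to 72.3%) and 68.0% in library 2 (64.3% to 71.5%). Among all other listed reads, a first C made up 8.31% in library 1 and 9.32% in library 2, and a first U 78.1% and 76.4%. This contrast is one of reads. Counted by sequence, 2 of the 7 forms began with C, against 39 of the 160 other sequences with reads (24.4%). The family was not alone in having many reads with a first C. Of the 30 families with at least 100 reads it ranked 4th by the share of reads with a first C. It came after miR6478, a registered entry proposed to be a tRNA fragment, miR395 and miR482/miR2118. Each C-starting form has a near twin with U in its place and the same seed. Within the seed GAGCCGA, the C form made up 95.3% in library 1 and 96.3% in library 2. Within the seed GATTGAG, the C form held 69.9% in library 1 and 75.4% in library 2. The C form was thus the more abundant of its seed in both libraries, in both seeds.

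**Figure D3:**
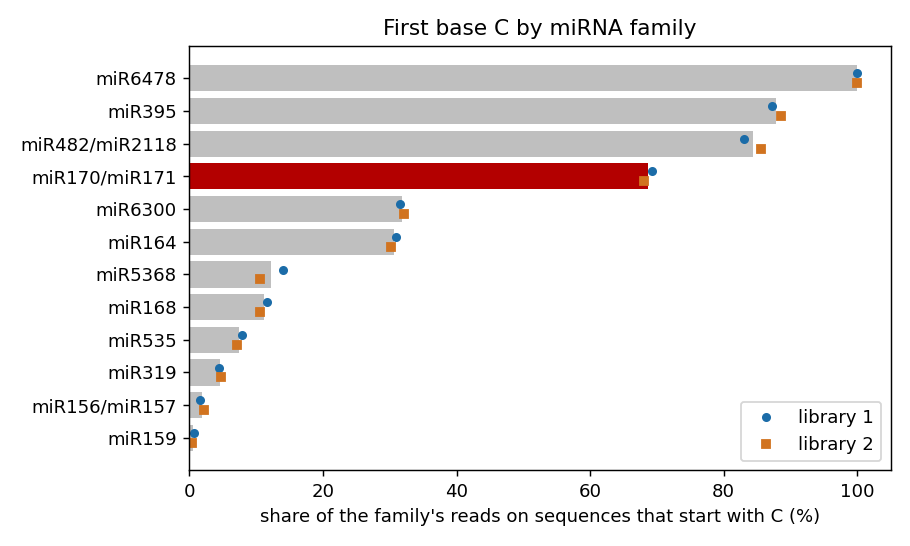
Share of a family's reads (%) on sequences that start with C, for the 12 of 30 families with at least 100 reads in which it is above 0; bars give the mean of the 2 libraries, circles library 1 and squares library 2. The miR170/miR171 bar, in red, stands at 68.6% and is 4th from the top.

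The table places the 7 forms on 9 turmeric hairpins, named A to I here, on 7 contigs of an unnamed assembly. Hairpins A, E and G lie on 1 contig, at WXZB01075556.1:362030645-362030744 on the minus strand, WXZB01075556.1:88666148-88666282 on the plus strand and WXZB01075556.1:58067163-58067321 on the minus strand. Genes at these places were not analysed here. Hairpin B, 60 bases long, is wholly contained in the sequence of hairpin A. The hairpins were 60 to 159 bases long, with a median of 107. The authors' folding index, which divides free energy by length and GC content so that a higher value means a tighter fold, was 0.9 to 1.3 over the 9 hairpins, with a median of 1.1. The 217 other hairpins of the table had a median of 0.7 and a range of 0.1 to 1.8. They were 21 to 220 bases long, so some were far shorter than any hairpin of the family, and the difference was not tested. In the authors' fold, 17 to 20 of the 21 bases of each listed form were paired.

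Hairpin A is shown because it is the only one of the 9 with both arms listed. Capitals mark mdm-MIR171m-p5 at positions 22 to 42 and mtr-miR171c at positions 62 to 82, with 19 bases between them.
Hairpin A: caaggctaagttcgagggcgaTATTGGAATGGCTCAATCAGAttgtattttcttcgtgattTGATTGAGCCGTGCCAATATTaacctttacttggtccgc
In the deposited fold, the strand opposite mtr-miR171c with an overhang of 2 bases at each 3′ end is exactly mdm-MIR171m-p5, base for base. The arm that is usually the discarded one was listed at the higher level here. The 5′ sequence had 54 reads against 43 for the 3′ sequence in library 1, and 51 against 29 in library 2, where the 3′ values are sums over its lines for hairpins A and B. It thus made up 55.7% of the pair in library 1 (interval 45.2% to 65.8%) and 63.8% in library 2 (52.2% to 74.2%), and the interval excludes an even split in library 2 but not in library 1. The line of hairpin A alone gives mtr-miR171c 21.5 reads in library 1 and 14.5 in library 2. With it the 5′ sequence made up 71.5% (59.5% to 80.9%) and 77.9% (65.3% to 86.7%). This count takes 1 of the 2 equal values of the 3′ sequence but the whole value of the 5′ sequence. Its larger 5′ share therefore follows from how the count is built, and its intervals cannot test an even split. The 5′ sequence was thus the higher in both libraries with sums. The count on the line of hairpin A could only widen that lead, so it adds no support, and the size of the lead depends on the count. Of 24 hairpins in the whole table with both arms listed and reads in both libraries, this one ranked 2nd in library 1 and 3rd in library 2 by the share of the weaker arm, which was 44.3% in library 1 and 36.2% in library 2. With the lines of each hairpin alone, the weaker arm of hairpin A was at 28.5% in library 1 and 22.1% in library 2, which ranked 9th and 8th of the 24. The weaker arm stayed under 10% in both libraries in 9 of the 24 hairpins with sums and in 10 with single lines. For the family as a whole the 3′ arm accounted for 93.6% in library 1 and 92.3% in library 2. On the other 8 hairpins no sequence of the 5′ arm was listed.

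Hairpins C and H are shown because the leading form is listed on both and matches only one. Capitals mark the 21 bases to which it is assigned.
Hairpin C: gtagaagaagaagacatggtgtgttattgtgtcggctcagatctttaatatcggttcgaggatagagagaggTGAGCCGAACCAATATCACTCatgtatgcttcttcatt
Hairpin H: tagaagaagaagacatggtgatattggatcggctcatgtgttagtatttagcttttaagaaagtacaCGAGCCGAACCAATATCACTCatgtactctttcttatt
Hairpin C lies at WXZB01003824.1:6971-7080 on the minus strand and hairpin H at WXZB01127780.1:637-741 on the plus strand. Hairpin H contains mes-miR171l without a change. Hairpin C differs from it by C1T, with the base of the listed sequence first, and there contains the shifted osa-miR171h sequence in its place, which is however listed for hairpin D alone. The same was found for the other C-starting form. Hairpin E contains tae-MIR171b-p3 exactly, and hairpin F, at WXZB01216516.1:520-646 on the minus strand, differs from it by C1T and holds osa-miR171b, which is listed for hairpin G alone. Of the 10 placements of a form on a hairpin, these were the 2 with a changed base.

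**Figure D4:**
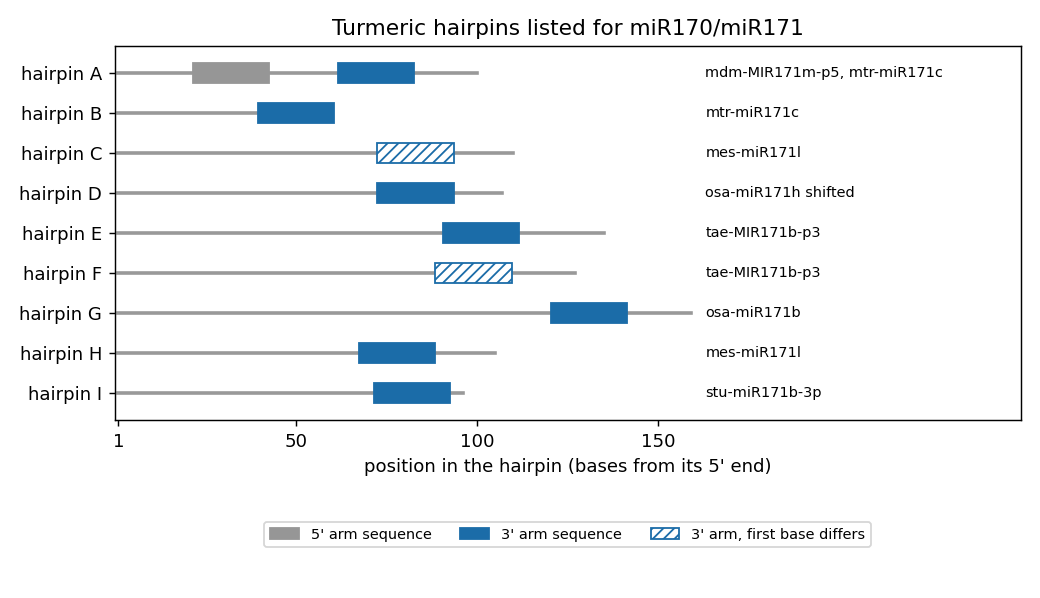
The 9 turmeric hairpins listed for miR170/miR171, drawn to scale from their 5′ end (bases), with the listed sequences as boxes: grey for the 5′ arm, blue for the 3′ arm, and hatched where the first base of the hairpin differs from the listed sequence. Boxes of the 3′ arm are on all 9 hairpins and a box of the 5′ arm on hairpin A.

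These placements bear on the counts. The lines of a form carry equal values, 213.5 reads in library 1 and 150.5 in library 2 on each line of mes-miR171l, and 76.5 and 73.5 on each line of tae-MIR171b-p3, and the sum over lines was used here. With a single line in place of the sum, the C-starting forms held 54.2% of the family, against 68.6% ± 0.83 (SD, n = 2) with the sum. The order of 2 pairs turned, with stu-miR171b-3p above tae-MIR171b-p3 and osa-miR171b above mtr-miR171c. A further pair, mtr-miR171c and shifted osa-miR171h, was no longer ordered, and the other 18 of 21 pairs kept their order. Per the file headers each listed sequence stands for a cluster of reads, so its value may also hold reads of close variants, and the split between C and U at the first base holds only as far as the table separates them.

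The libraries were then compared form by form. In a two-sided exact binomial test with Benjamini-Hochberg adjustment over all 167 sequences, 0 of the 7 forms were called, where 13.8% of all sequences were. Without adjustment, 1 of the 7 and 40 of the 167 had a p below 0.05. That form was tae-MIR171b-p3, whose share of listed reads was 0.159% in library 1 and 0.204% in library 2, a log2 ratio of -0.36 for library 1 over library 2 (exact binomial test, p = 0.0355, adjusted p = 0.156). The leading mes-miR171l stood at 0.443% in library 1 and 0.417% in library 2, a ratio of 1.06 with an interval of 0.915 to 1.24. The widest ratio belonged to the form with the fewest reads, shifted osa-miR171h, at 1.37 with an interval of 0.616 to 2.92. The median log2 ratio was -0.14 over the 7 forms and -0.0019 over the 153 sequences with reads in both libraries. These intervals leave room for differences that the read numbers cannot show, and the test compares 2 libraries of 1 group and says nothing of other preparations.

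**Figure D5:**
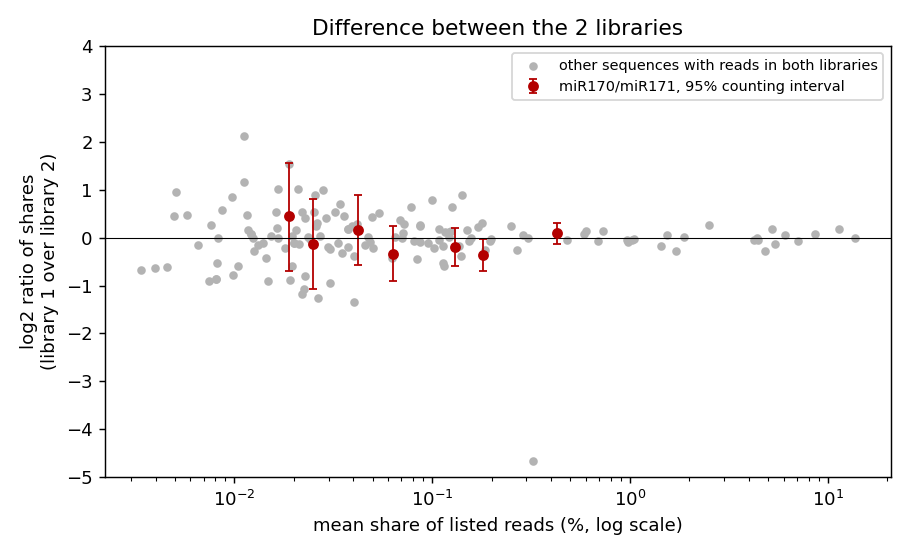
Log2 ratio of shares, library 1 over library 2, against the mean share of listed reads (%, log scale) for the miR170/miR171 forms (red, with 95% counting intervals) and the other sequences with reads in both libraries (grey). The 7 red points lie between -0.36 and 0.45 on the log2 scale.

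At the level of whole families, miR170/miR171 had a ratio of 0.953 for library 1 over library 2 (interval 0.859 to 1.06, exact binomial test, adjusted p = 0.683), where 11.6% of the 43 families were called. The families whose log2 ratio lay nearest to its -0.069, among those with at least 100 reads, were miR164, which targets NAC genes, at -0.066, miR156/miR157, which targets SPL genes, at -0.064, and miR5077 at -0.076. With 2 libraries this likeness is a description of 1 ratio per family. The miR5077 entry is 1 sequence with 76 reads in library 1 and 60 in library 2, proposed to be an rRNA or tRNA fragment. Of the 14 families listed as acting on regulators of development, 13 had reads in both libraries and miR390 had none. Among all 43 named families with reads, only miR10423 and miR399 lacked reads in either library. By share, miR170/miR171 ranked 6th among the 13 of the development list. In that list 1 family, miR319, was called higher in library 1 and 0 were called higher in library 2.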

How the data were processed

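Small RNA of 2 turmeric nanoparticle samples was analysed. RNA came from the miRNeasy kit and libraries from TruSeq small RNA chemistry, per the labels' protocols. CASAVA 1.8.4 and cutadapt 1.10 appear in the submitters' processing notes with no role stated. Reads were assigned to miRBase entries of selected species, and precursors to a genome and ESTs, per the file headers. The deposited table gives an expected count of reads per line and a normalized signal, which by its values is that count times 0.508 in library 1 and 0.923 in library 2. The folding index is a score deposited by the authors, and lengths and free energies are other values deposited with it. Of 278 lines, 12 are empty in the version used here, and totals and shares cover the rest. The table has 2 value columns of no sample in this series, which were not used.

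Members and lists were chosen with earlier results of these data known. Reads were summed over the lines of a sequence. After summing, 0 of the 7 members with reads had a fractional value in library 1 and 1 in library 2 (tolerance 1e-06). A form or family was placed above another where both libraries put it higher and the mean log2 ratio was above its SD. Starts were to be set by the longest overlap with at most 2 mismatches. That rule placed only the shifted osa-miR171h form, at the leading start, and gave overlaps of at most 3 bases for the rest. The run CAATAT shared by the 3′ arm forms was therefore used, chosen after seeing the data. Forms with at least 10% of the family's reads are given in full, and other families are the neighbours in rank and the 3 nearest in ratio. Loosely matched means that every name has an unregistered arm or 2 substitutions and that no registered sequence quoted is identical. The exact binomial test used values rounded to whole reads and a threshold of 0.05, and was tested on simulated data. Intervals are exact at 95%. Python 3.11.15, pandas 2.3.3 and SciPy 1.17.1 were used.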

Additional observations from a re-analysis of the deposited data

How the results depend on the processing

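Settings other than a single library, the normalized columns and any name moved most shares by more than the SD of the 2 libraries, which follows from how these settings are built, since each counts fewer reads or entries. With a single line per sequence the family held 0.835% of listed reads and ranked 11th, mes-miR171l held 38.2% of the family, the leading start 41.6%, the 3′ arm 88.8% and first-C forms 54.2%. On hairpin A the 5′ arm then held 74.7%, against 59.7% with sums. Without loosely matched entries the family, mes-miR171l, the leading start, the 3′ arm and first-C forms stood at 0.929% of listed reads, 66.5%, 69.4%, 100% and 66.5%. The family's share was 0.944% among registered names only, 1.09% without rRNA or tRNA fragment entries and 0.463% without its most abundant member. Single libraries gave 0.869% to 0.912% for the family, 45.7% to 51.0% for mes-miR171l, 47.5% to 53.5% for the leading start, 92.3% to 93.6% for the 3′ arm and 68.0% to 69.2% for a first C and 55.7% to 63.8% for the 5′ arm of hairpin A, which lie within 1 SD by construction. The 0 members called held in every setting run, with lowest adjusted p of 0.115 to 0.567 (exact binomial test). The length of 21 bases could not change with any setting, because all 7 forms with reads have it. The settings on a first C, hairpin A, the development list and the shared run were chosen after seeing the data. The number of reads limits the rarer forms, whose ratio intervals span more than 2-fold. No paired analysis was possible because both samples belong to 1 group.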
